A study of Mus musculus with 8 samples.

Results

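The comparison described here sets mouse neurosphere cells exposed to 2 inhibitors of gene silencing together against cells of the same experiments left untreated. It takes 4 of the 8 arrays of the study, the 2 titled AzaC/TSA and the 2 titled untreated, matched by experiment number. The AzaC/TSA cultures received 500 nM AzaC (5-aza-2'-deoxycytidine) and 150 nM TSA (trichostatin A) for 2 days. The untreated cultures received neither compound. The other 4 arrays, from cultures given 150 nM TSA alone or 500 nM AzaC alone for the same time, entered the fit and are set beside the results at the end. Neurospheres are floating clusters of dividing neural stem and progenitor cells, grown here from individually isolated mouse forebrains of embryonic day 14.5. All cultures of all 4 groups, untreated ones included, came from embryos that carried a bcl2 transgene, so that every value below was measured in cells with this inhibitor of cell death added. The labels do not name the promoter of the transgene or say how many forebrains lie behind an array. Each group has 1 array from each of 2 independent experiments, called experiment 1 and experiment 2 below.

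AzaC is a cytosine analogue that is built into newly copied DNA, where it traps DNA methyltransferases, so that methylation is lost as cells divide. TSA blocks the zinc-dependent histone deacetylases, and acetylated histones accumulate within hours. Silenced promoters can carry both marks, which is why the pair of compounds is often given together. TSA is also widely known to halt the cell cycle in cultured cells. Genes of mitosis and of DNA replication are held off or switched on over the cell cycle by the DREAM, B-Myb-MuvB and E2F complexes. Short elements of their promoters include the CHR (cell cycle genes homology region), the CCAAT box and the E2F site.

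Values are array signals, fluorescence intensities on a linear scale that the authors had brought to a common trimmed mean of 200.1. Over all 8 arrays the median signal lay between 59.2 and 72.7, and the arrays of the comparison had actin 5' to 3' ratios, a sign of RNA integrity, of 0.29 and 0.39 in AzaC/TSA against 0.427 and 0.332 in untreated, so the groups overlapped in this measure. A log2 change is the mean log2 signal of AzaC/TSA minus that of untreated, with signals under 20 raised to that floor. A change whose lower group touches the floor is given as "at least". A gene or probe set is called when limma's adjusted p (Benjamini-Hochberg over 7987 probe sets, two-sided, 2 arrays per group) is under 0.05. Precision is limited by having 2 arrays a group. A log2 change had a standard error of 0.41 at the median over probe sets and a 95% half-width of 0.93. In RNA from whole cultures, fewer cells of a type and less RNA per cell cannot be told apart.

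The genes called lower in AzaC/TSA cultures than in untreated cultures included 19 of 26 spindle and chromosome structure genes and 11 of 36 DNA replication genes. Those called higher included 11 of 53 lysosomal genes, 6 of 31 immediate early and stress transcription factors and 4 of 14 genes of secretory granules. Of 7987 probe sets tested, 249 were called (3.12%), 103 of them higher (1.29%) and 146 lower (1.83%). Each of the 249 had the same sign in experiments 1 and 2, and in each the AzaC/TSA and untreated signals did not overlap. Over all 7987 probe sets, 63.1% had the same sign in both experiments. Their AzaC/TSA signals lay wholly above the untreated ones in 23.2% and wholly below in 24.5%. The calls rest on these same arrays, so neither count is separate support for them. The median log2 change was 2.25 among the probe sets called higher and -2.50 among those called lower. It was close in the 2 experiments, at 2.06 and 2.29 for the calls higher and at -2.37 and -2.59 for the calls lower. Of the 103 higher, 77 were measured above the floor on all 4 arrays and 26 are bounds. Of the 146 lower, 103 were measured and 43 are bounds. With the experiment as a block, 746 probe sets were called (9.34%), 350 higher (4.38%) and 396 lower (4.96%), and these included all 249.

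Counted once per gene, 205 of 6011 genes were called (3.41%), 82 higher (1.36%) and 123 lower (2.05%), and the block called 620 (10.3%). The median log2 change over all 6011 genes was -0.01, a value that the common scaling of the arrays largely sets. Experiment 1 held 625 genes over 2-fold higher and 643 over 2-fold lower, and experiment 2 held 816 and 693. Only 280 genes were over 2-fold higher in both experiments and 274 over 2-fold lower in both, and 66 moved over 2-fold in opposite directions. The calls leaned on single arrays: without the untreated array of experiment 2, 14 probe sets were called, and without AzaC/TSA 1, AzaC/TSA 2 or untreated 1, 66, 92 and 102 were. Of the 107 called genes named by the rule in the processing notes, 10 were called under all 20 alternatives (Fos, Clu, Cdc20, Mki67, Kif20a, Pclaf, Top2a, Kif11, Aurkb and H2ax), and the other 97 lost the call at least without untreated 2. None of the 107 turned its direction under any alternative.

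**Figure D1:**
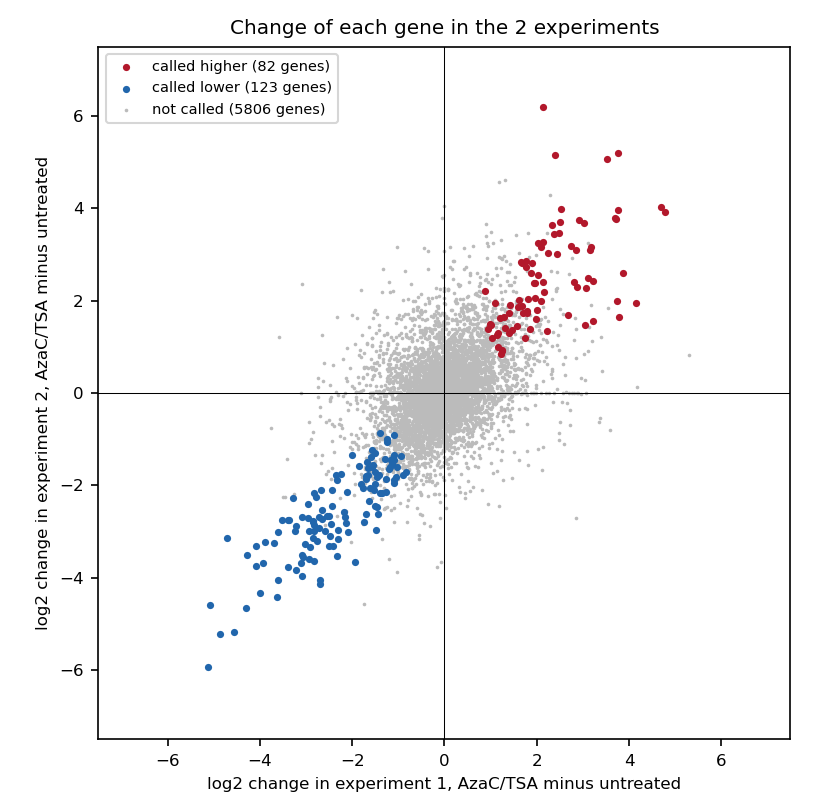
Log2 change of each of 6011 genes (AzaC/TSA minus untreated) in experiment 1 on the horizontal axis and in experiment 2 on the vertical axis, 1 probe set per gene. The 82 genes called higher (red) lie at the upper right and the 123 called lower (blue) at the lower left, and the 5806 genes not called (grey) surround the origin.

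Genes of mitosis were among those that fell most. Cdc20, the activator of the anaphase-promoting complex, had signals of 87.8 and 109 in AzaC/TSA cultures, against 1728 and 2726 in untreated cultures, a log2 change of -4.47 ± 0.30 (SE, n = 2 each, adjusted p = 0.00045). Cdk1, the kinase that drives entry into mitosis, had 58.3 and 137 in AzaC/TSA, against 1128 and 1570 in untreated (log2 -3.90, 14.9-fold lower). Mki67, the antigen used to score proliferating cells, had 25.5 and 17.8 in AzaC/TSA, against 883 and 1226 in untreated, at least 46.1-fold lower. In each of these genes the higher AzaC/TSA array lay below the lower untreated array by several-fold. Top2a, the topoisomerase that untangles chromosomes, had 5.3 and 23.9 in AzaC/TSA, against 471 and 866 in untreated, at least 29.2-fold lower. Kif20a, a kinesin of cytokinesis, was at least 32.9-fold lower, and Kif11, the kinesin that separates spindle poles, had 2.1 and 2.8 in AzaC/TSA, against 321 and 404 in untreated. On the AzaC/TSA arrays, Mki67, Top2a, Kif20a and Kif11 all touched the floor, so the size of their fall was not reached by the measurement.

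Among genes of the spindle, the kinetochore and chromosome structure, 19 of 26 tested were called lower and none of them higher, and the AzaC/TSA signals lay wholly below the untreated ones in 23 of 26 (25.5% of all genes did so). The median log2 change was -3.11, beside -0.01 over all genes. Of 13 mitotic kinases, 7 were called lower and none of them higher, with a median of -2.61. Aurkb, of the chromosomal passenger complex, fell by 4.02 on the log2 scale as a bound, and its partners Birc5 (survivin) and Cdca8 (borealin) fell by 3.53 and 2.89. Plk1, which acts from spindle assembly to cytokinesis, had 83.9 and 101 in AzaC/TSA, against 489.9 and 642 in untreated (log2 -2.61). Plk2 and Plk3, stress-responsive kinases of the same family that do not mark mitosis, were not called, with log2 changes of 0.43 and 0.01 and signals that overlapped. Of 18 mitotic cyclins, anaphase-promoting complex and checkpoint genes, 9 were called lower and none of them higher (median log2 -1.45). They included Ccnb2 (-2.82) and Ccna2 (-2.59), the cyclins that partner Cdk1. Without untreated 2, the calls in these 3 lists came to 4 of 26, 1 of 13 and 1 of 18.

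The promoters of Mki67 and Top2a are shown because these genes had the smallest p among called spindle genes with a promoter window. They are marked for the CHR and CCAAT elements named above, which lie in many genes of this group. Both windows run from 250 bases before to 50 after the start site on the coding strand (RefSeq, GRCm38.p6), at chr7:135716330-135716629 (minus strand) for Mki67 and chr11:99024140-99024439 (minus strand) for Top2a. Capitals mark CHR (TTTGAA) and CCAAT matches on either strand.
Mki67: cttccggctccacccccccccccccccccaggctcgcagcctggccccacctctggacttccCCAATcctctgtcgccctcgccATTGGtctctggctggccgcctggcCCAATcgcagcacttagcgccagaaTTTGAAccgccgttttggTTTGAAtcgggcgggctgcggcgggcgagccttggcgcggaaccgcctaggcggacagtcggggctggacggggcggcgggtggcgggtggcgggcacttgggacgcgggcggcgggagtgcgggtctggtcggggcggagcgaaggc
Top2a: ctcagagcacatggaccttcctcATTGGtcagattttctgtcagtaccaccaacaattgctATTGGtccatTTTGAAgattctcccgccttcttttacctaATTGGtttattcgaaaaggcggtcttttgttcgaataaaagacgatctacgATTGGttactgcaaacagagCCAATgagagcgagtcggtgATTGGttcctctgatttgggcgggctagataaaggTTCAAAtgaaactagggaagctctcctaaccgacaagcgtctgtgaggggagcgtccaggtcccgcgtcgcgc
The Mki67 window holds 2 CHR and 3 CCAAT matches, and the Top2a window 2 and 6.

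A window was found for 108 of the 123 genes called lower and for 66 of the 82 called higher, and for 4866 of the 6011 genes tested. CHR matches lay in 39 of the 108 windows of genes called lower (36.1%), in 5 of the 66 of genes called higher (7.58%) and in 12.1% of those of all tested genes. In the spindle list 15 of 21 windows held one. Over all 32851 mouse windows of this length the share was 17.9%. CCAAT matches lay in 61.1% of windows of genes called lower, in 28.8% of those of genes called higher and in 39.0% of those of all tested genes. The median ratio of observed to expected CpG was 0.87 in windows of genes called lower, 0.70 in those of genes called higher and 0.78 over all tested genes. A match describes the letters of the window and was not tested for binding.

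Of 36 DNA replication genes tested, 11 were called lower and none of them higher. Of the 36, 32 had all AzaC/TSA signals below all untreated signals (25.5% of all genes). With the experiment as a block, 22 of 36 were called lower (5.61% of all genes). Without untreated 2, the 11 calls came to 1. Pclaf, the clamp-associated factor, had 15.8 and 37.4 in AzaC/TSA, against 675 and 898 in untreated, at least 28.5-fold lower, though a second probe set gave -1.52 without a call. Mcm5, a subunit of the helicase that opens the origin, had 72.7 and 137 in AzaC/TSA, against 754 and 926 in untreated (log2 -3.06, 8.36-fold lower), and its second probe set gave -0.44 without a call. Lig1, the ligase that joins Okazaki fragments, fell by 3.40. The sliding clamp Pcna had 389 and 944 in AzaC/TSA, against 1849 and 3208 in untreated (log2 -2.01), and was called with the experiment as a block (adjusted p = 0.000609) and not without it. All 5 of the MCM2-7 subunits tested had AzaC/TSA signals below the untreated ones, and 3 of these 5 were called.

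The Mcm5 and Pclaf windows, picked by smallest p from the replication list, lie at chr8:75109259-75109558 (plus strand) and chr9:65890073-65890372 (plus strand). They are marked for E2F matches, the element through which S-phase genes are switched on. Capitals mark E2F (TTTCCCGC or TTTGGCGC) and CCAAT matches on either strand.
Mcm5: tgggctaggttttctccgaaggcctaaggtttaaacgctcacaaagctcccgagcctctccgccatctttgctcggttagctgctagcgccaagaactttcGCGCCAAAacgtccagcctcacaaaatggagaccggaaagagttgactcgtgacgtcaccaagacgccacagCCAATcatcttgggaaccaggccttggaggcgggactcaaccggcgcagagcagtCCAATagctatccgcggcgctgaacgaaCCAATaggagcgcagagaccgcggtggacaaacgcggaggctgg
Pclaf: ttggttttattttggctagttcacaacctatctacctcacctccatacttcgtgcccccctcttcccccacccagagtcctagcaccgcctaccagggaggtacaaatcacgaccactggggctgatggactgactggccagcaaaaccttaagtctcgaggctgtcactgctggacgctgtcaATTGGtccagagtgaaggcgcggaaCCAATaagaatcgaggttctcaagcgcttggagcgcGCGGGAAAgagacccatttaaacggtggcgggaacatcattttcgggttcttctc
In the replication list 9 of 32 windows held an E2F match (28.1%), beside 3.37% of all tested genes and 1.56% of all mouse windows.

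Of 15 enzymes that supply deoxynucleotides, 3 were called lower and none of them higher. Rrm2, the regulated subunit of ribonucleotide reductase, had 94.7 and 111 in AzaC/TSA, against 676 and 804 in untreated (log2 -2.85 ± 0.30, SE, n = 2 each). Its partner Rrm1 fell by 2.79 and the thymidine kinase Tk1 by 3.37. The block called 7 of 15 lower (5.61% of all genes), and the signals of 8 lay wholly below the untreated ones (25.5% of all genes). Of the 15, 3 had a higher signal in both experiments. Of 29 DNA repair genes 1 was called, Nbn of the double-strand break complex, at least 6.64-fold lower. Of 25 genes of the G1 cyclins, CDK inhibitors and Rb-E2f, 2 were called lower, Rbl1 (p107, -1.64) and the Myc antagonist Mxd3 (-1.92). Cdkn1a, the p21 inhibitor of cyclin-dependent kinases, had 2237 and 1508 in AzaC/TSA, against 1225 and 806 in untreated, a log2 change of 0.89 that was called with the block (adjusted p = 0.0223) and not without it. None of 22 p53 target genes was called, and the block called 5 of 22 higher (4.71% of all genes), Ddit4 (1.22), Btg2 (1.45) and Mdm2 (1.37) among them. None of 22 apoptosis and Bcl2 family genes was called by either fit. Bcl2 itself had 161 and 264 in AzaC/TSA, against 217 and 108 in untreated, with overlap, and the files do not say whether its probes detect the transgene.

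Among the targets of the drugs, Dnmt1 and its partners were lower and no histone deacetylase gene was called. Dnmt1, the maintenance methyltransferase that AzaC traps, had 188 and 229 in AzaC/TSA, against 536 and 749.9 in untreated (log2 -1.61, 3.06-fold lower, adjusted p = 0.026). Its recruiting partner Uhrf1 had 48.5 and 96.4 in AzaC/TSA, against 344 and 432 in untreated (log2 -2.49). Mbd3, a subunit of the NuRD corepressor, fell by 1.36. These were the 3 called of 8 genes of DNA methylation and methyl-CpG binding. Dnmt3a was not called, with 1 untreated array under the floor. None of 24 histone deacetylase and corepressor genes was called. Hdac1, Hdac2, Hdac3 and Hdac6, enzymes of the family TSA inhibits, had log2 changes of 0.40, -0.35, 0.44 and 1.02, and none of these 4 passed with the block either.

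Of 48 other chromatin genes, 6 were called lower and none of them higher, and the block called 10 lower and 1 higher, the Polycomb subunit gene Phc2 (0.98). Hmgb2, an abundant DNA-bending protein of dividing cells, had 35.3 and 97.1 in AzaC/TSA, against 406 and 656 in untreated (log2 -3.14). Hmgb3, of the same family, fell by 1.59, the heterochromatin protein Cbx5 (HP1 alpha) by 1.72 and the corepressor Trim28 (KAP1) by 1.27. Actl6a and Prmt1 completed the 6, and the nucleosome-binding Hmgn1 did not pass, at 7565 and 7214 in AzaC/TSA against 7682 and 8055 in untreated. H2ax, the histone variant that is phosphorylated at DNA breaks, had 307 and 244 in AzaC/TSA, against 1522 and 1898 in untreated (log2 -2.63, 6.21-fold lower), and was the 1 called of 7 histone genes. H2az1, another replacement histone, had a change of -1.35 that the block called.

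Of 48 splicing factors tested, 5 were called lower and none of them higher, and 29 of 48 had AzaC/TSA signals wholly below the untreated ones (25.5% of all genes). The block called 14 of 48 lower (5.61% of all genes). Hnrnph1, which binds G-runs near splice sites, had 214 and 209 in AzaC/TSA, against 964 and 1253 in untreated (log2 -2.38 ± 0.26, SE, n = 2 each, 5.19-fold lower). Srsf2, an SR protein that promotes exon inclusion, had 774 and 769.6 in AzaC/TSA, against 2234 and 3278 in untreated (log2 -1.81), and its second probe set gave -2.01. Srsf6 and Lsm3 fell by 1.55 and 1.72. Ptbp2, the neural polypyrimidine tract protein of developing neurons, fell by 2.17. The median of the list was -0.52, and without untreated 2 none of the 5 calls held. None of 25 ribosomal protein genes was called by either fit, and their median was -0.08. Of 43 translation and ribosome assembly genes none was called and the block called 4 lower, the nucleolar Nop56 (-2.35) and Npm1 (-1.34) among them. Of 44 proteasome and ubiquitin genes none was called.

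Of 18 sterol synthesis genes, 4 were called lower and none of them higher, and the block called 8 lower. Idi1, the isopentenyl diphosphate isomerase, had 301 and 327 in AzaC/TSA, against 1887 and 2180 in untreated (log2 -2.69, 6.46-fold lower). Cyp51, Fdps and Hmgcs1, which act after and before it in the pathway, fell by 2.28, 2.07 and 1.98. Srebf1, which encodes a regulator of lipid synthesis, had 818 and 1267 in AzaC/TSA, against 435 and 366 in untreated, and was not called. CCAAT matches lay in 14 of 15 windows of the list (93.3%). In lipid handling, Abca1, the exporter of cellular cholesterol, had 2995 and 1159 in AzaC/TSA, against 349 and 207 in untreated (log2 2.79). Fabp5, a fatty acid carrier of progenitor cells, fell by 2.39.

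Of 31 glycolysis and hypoxia genes, 4 were called lower and 1 higher. Ldha, which makes lactate, had 1729.7 and 2309 in AzaC/TSA, against 5551 and 6464 in untreated (log2 -1.58). The glycogen enzymes Gys1 and Pygm fell by 1.60 and, as a bound, 3.93, and Tkt of the pentose phosphate pathway by 1.31. Pfkp, the platelet-type phosphofructokinase, had 188 and 108 in AzaC/TSA, against 19.7 and 3.9 in untreated, at least 7.12-fold higher. Of 57 respiratory chain and TCA cycle genes, 2 were called lower, Uqcrb (-1.74) and Ndufb8 (-1.14), near the 2.05% of all genes called lower. The block called 9 of 31 and 8 of 57 lower in these lists (5.61% of all genes).

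**Figure D2:**
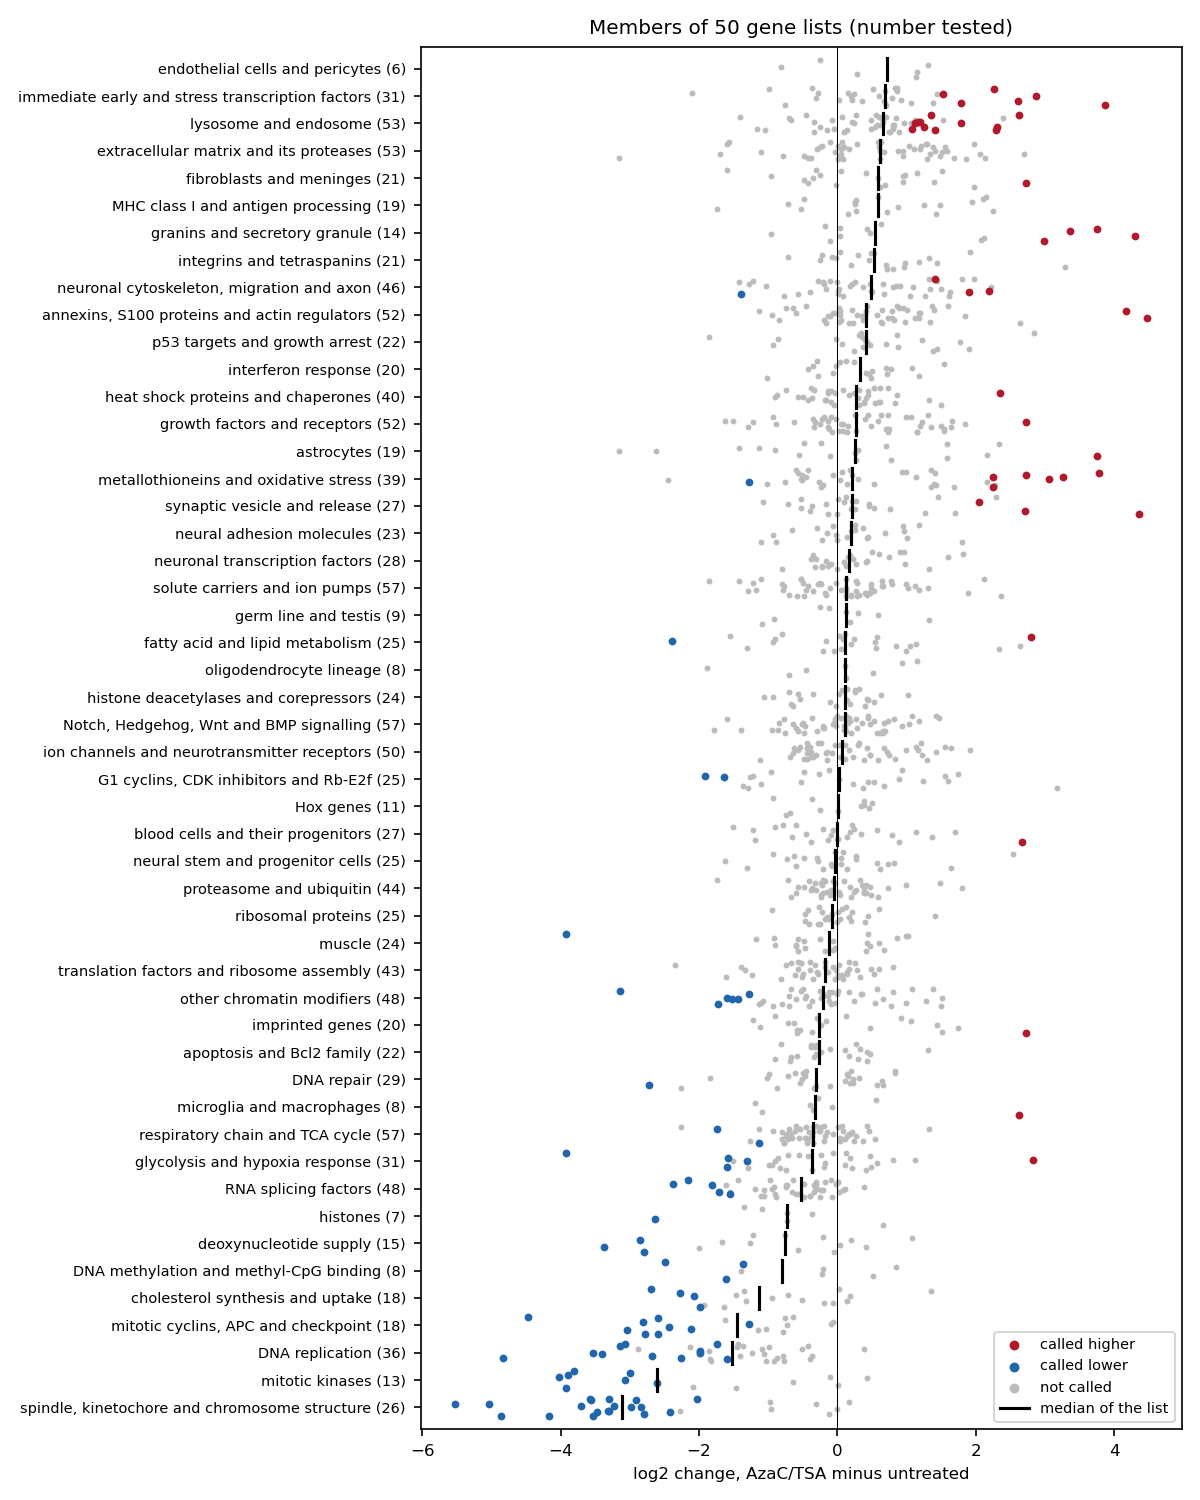
Log2 change (AzaC/TSA minus untreated) of each tested member of 50 gene lists, 1 point per gene, with the number tested in brackets and a black bar at each list's median. Red points were called higher and blue points lower. The spindle list has its median at -3.11 and the lysosome list at 0.66.

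Immediate early genes, the transcription factors that cells switch on within minutes of a stimulus, were among the largest rises. Fos had 877 and 665 in AzaC/TSA, against 64.9 and 42.2 in untreated, a log2 change of 3.87 ± 0.36 (SE, n = 2 each, 14.6-fold higher, adjusted p = 0.0015). Egr2 had 1365 and 667 in AzaC/TSA, against 102 and 166 in untreated (log2 2.87). Egr1 had 4670.4 and 1959 in AzaC/TSA, against 568 and 701 in untreated (log2 2.26). The AzaC/TSA signals of these 3 genes lay wholly above the untreated ones. Ier2 (1.79), Cebpb (1.53) and Zfp36, which destabilises cytokine mRNAs (at least 6.10-fold), completed the 6 called of 31. None of the 31 was called lower. The abundant member Jund, at 6879 and 10111 in AzaC/TSA against 6030 and 7021 in untreated, was not called.

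Genes of metal binding, redox balance and polyamine turnover gave 6 calls higher and 1 lower among 39. Akr1b8, an aldo-keto reductase, had 512 and 756 in AzaC/TSA, against 97.5 and 21.1 in untreated (log2 3.78 ± 0.70, SE, n = 2 each). The 2 untreated arrays were far apart for this gene, and the change was 2.39 in experiment 1 and 5.16 in experiment 2. Sat1, the enzyme that starts polyamine breakdown, had 2223 and 2228 in AzaC/TSA, against 387 and 139 in untreated (log2 3.26). Txnip, the thioredoxin-binding protein, had 1781 and 409 in AzaC/TSA, against 99.4 and 106 in untreated (log2 3.06). The metallothioneins Mt1 and Mt2, which bind zinc and copper, rose by 2.25 and 2.73, and Mt2 reached 20068 and 11121 in AzaC/TSA, against 3684 and 1377 in untreated. Gstp1 rose by 2.24 and the peroxiredoxin Prdx2 fell by 1.28. Of 40 heat shock and chaperone genes only the inducible Hspa1b was called (2.35), while the constitutive Hspa8 had 4242 and 4487 in AzaC/TSA, against 4404 and 4935 in untreated.

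Of 14 granin and secretory granule genes 4 were called higher and none of them lower, and of 27 synaptic genes 3 were called higher and none of them lower. Without untreated 2, both counts were 0. The median log2 change was 0.55 in the granule list and 0.21 in the synaptic list (-0.04 and 0.49 in experiments 1 and 2). Of the 27 synaptic genes, 8 had AzaC/TSA signals wholly above the untreated ones and 3 wholly below. Over all genes these shares were 23.6% and 25.5%, so the 8 lie near the share of all genes. Chga, chromogranin A of dense-core granules, had 565 and 625 in AzaC/TSA, against 77.7 and 72.9 in untreated (log2 2.98). Chgb had 1652 and 537 in AzaC/TSA, against 128 and 38.6 in untreated (log2 3.75), so that the experiments differed in level while the ratio was alike. Scg2 had 281 and 675 in AzaC/TSA, against 24.3 and 7.9 in untreated, at least 19.8-fold higher. Resp18, a secretory granule protein, rose by 3.36. Snap25, a SNARE protein of vesicle fusion, had 551 and 305 in AzaC/TSA, against 4.3 and 19.6 in untreated, at least 20.5-fold higher. Dnm1, the dynamin of synaptic endocytosis, rose by 2.71, and Syp, synaptophysin, by at least 4.12-fold.

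Of 46 genes of the neuronal cytoskeleton, migration and axon, 3 were called higher and 1 lower, and the block called 7 higher and 3 lower. AzaC/TSA signals lay wholly above the untreated ones in 22 of 46 and wholly below in 7 (23.6% and 25.5% of all genes). The median log2 change was 0.48. Mapt, the axonal protein tau, had 859.7 and 863 in AzaC/TSA, against 313 and 333 in untreated (log2 1.41). Crmp1, a growth cone protein, and Calb2, calretinin, rose by 1.90 and 2.19, and Tubb5, a tubulin of dividing cells, fell by 1.40. Tubb3, the tubulin used as a neuronal marker, had 1486 and 834 in AzaC/TSA, against 1836 and 1959 in untreated (log2 -0.77, not called), and its second probe set gave 1.63, also not called. None of 28 neuronal transcription factors, 23 neural adhesion genes or 50 ion channel and receptor genes was called. The block called 1 of 28, 1 of 23 and 3 of 50 of them higher, near the 4.71% of all genes. Sox4 (1.60) and Ncam1 (1.80) were among these.

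Lysosomes break down proteins, lipids and sugars in an acid lumen that the V-ATPase proton pump maintains. Of 53 lysosome and endosome genes, 11 were called higher and none of them lower, and 33 of 53 had AzaC/TSA signals wholly above the untreated ones (23.6% of all genes did so), while 3 had them wholly below. The median log2 change was 0.66. With the experiment as a block, 18 of 53 were called higher and 1 lower, the aspartic protease Ctse (-1.05). The lowest values among members not called were those of the dipeptidase Ctsc (-1.41, at -0.10 and -2.71 in experiments 1 and 2) and the glucuronidase Gusb (-1.17). The count rested on all arrays: with any 1 of the 8 left out it was between 0 and 5, and 0 without untreated 2. For the spindle list it was then between 4 and 20.

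Grn, progranulin, which is cut into granulins in the lysosome, had 3146 and 4168 in AzaC/TSA, against 767 and 712 in untreated, a log2 change of 2.29 ± 0.25 (SE, n = 2 each, 4.90-fold higher, adjusted p = 0.00361). A second, dim probe set gave 0.37 without a call. Ctsd, the main lysosomal aspartic protease, had 8387 and 6228 in AzaC/TSA, against 2128 and 2054 in untreated (log2 1.79 ± 0.23, SE, 3.46-fold higher). For Grn and Ctsd the spread within each group was small beside the difference. Ctsb, a cysteine protease, had 3081 and 2577 in AzaC/TSA, against 1384 and 1284 in untreated (log2 1.08), and its 2 further probe sets gave 1.54 and 1.05. Ctsa, which protects other hydrolases, and the asparagine endopeptidase Lgmn rose by 1.16 and 1.24. Of the 9 cathepsins tested, 3 were called higher, 4 had non-overlapping higher signals and 2 non-overlapping lower ones. Over all genes these shares were 1.36%, 23.6% and 25.5%, so the 2 lower lie near the share of all genes.

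The glycogen-degrading Gaa had 1283 and 1272 in AzaC/TSA, against 519.6 and 479 in untreated (log2 1.36), and its second, dim probe set gave -1.34 without a call. Arsa, arylsulfatase A of sulfatide breakdown, rose by 2.31. Of 11 V-ATPase subunits tested, 9 had AzaC/TSA signals wholly above the untreated ones (23.6% of all genes). Called higher were 3 (1.36% of all genes), Atp6v1c1 (1.42), Atp6v0d1 (1.20) and Atp6v1b2 (1.11). Atp6v1b2 had 2747 and 2827 in AzaC/TSA, against 1337 and 1239 in untreated. Lamp1, a major glycoprotein of the lysosomal membrane, had 12822 and 10139 in AzaC/TSA, against 6942 and 6539 in untreated, a change of 0.76 called with the block alone (adjusted p = 0.0384). Outside the list, the lysosomal proteins Pld3 (2.17), Dpp7 (2.58) and Creg1 (1.82), picked out after their values were seen, and Cstb, an inhibitor of cathepsins (2.92), were also called higher.

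Cd68, a lysosomal membrane glycoprotein abundant in macrophages, had 167 and 474 in AzaC/TSA, against 39.4 and 53 in untreated (log2 2.62). Microglia and macrophages hold many lysosomes, so their markers are given beside these counts. Cd68 was the 1 called of 8 markers tested. The summed signal of the 33 markers on the array was 776 and 1266 in AzaC/TSA, against 1061 and 702 in untreated, with overlap. The pan-leukocyte gene Ptprc was under the floor on all 8 arrays by each of its 3 probe sets. Cd14 and Cx3cr1 had changes of -0.36 and -1.08 and overlapping signals. The median change of the 8 tested markers was -0.67 in experiment 1 and 0.37 in experiment 2. Of the 8, 1 was higher in both experiments and 2 were lower in both. The part of macrophages in the lysosomal signals was not tested.

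Grn and Ctsd had the smallest p among called lysosome genes with a window, and only the Ctsd window is shown. It is marked for the element CACGTG, the core of the motif through which the TFEB family of factors acts on lysosomal genes. This element was searched after the values were seen. The Ctsd window lies at chr7:142387778-142388077 (minus strand) and holds 2 matches, in capitals.
Ctsd: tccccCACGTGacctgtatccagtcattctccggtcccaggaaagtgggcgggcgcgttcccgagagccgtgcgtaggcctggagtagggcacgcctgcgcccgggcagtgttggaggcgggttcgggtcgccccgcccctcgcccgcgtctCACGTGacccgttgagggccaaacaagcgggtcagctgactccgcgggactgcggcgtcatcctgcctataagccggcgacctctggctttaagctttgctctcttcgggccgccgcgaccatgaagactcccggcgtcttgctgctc
CACGTG lay in 12 of 45 windows of the lysosome list (26.7%), in 11% of those of all tested genes and in 7.15% of all mouse windows. The Grn window held none.

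**Figure D3:**
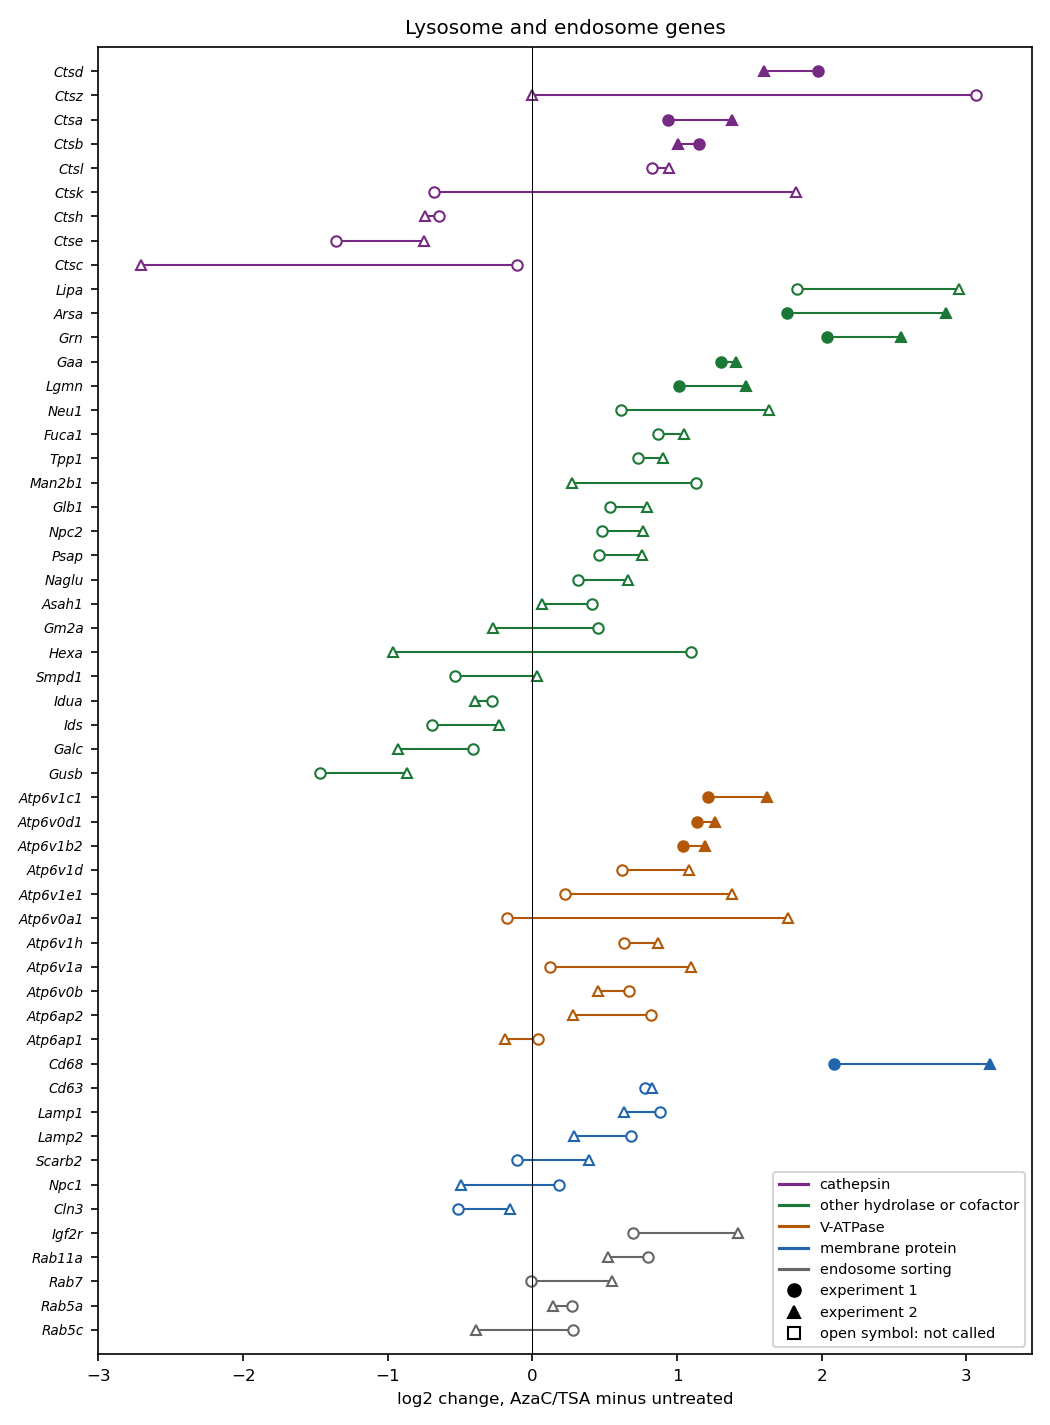
Log2 change (AzaC/TSA minus untreated) of 53 lysosome and endosome genes in experiment 1 (circles) and experiment 2 (triangles), grouped by role and joined by a line. Filled symbols mark the 11 genes called higher. Of the 11 V-ATPase subunits, 9 lie to the right of 0 in both experiments.

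None of 53 matrix genes and none of 21 integrins and tetraspanins was called. Their median log2 changes were 0.61 and 0.53, near the 0.66 of the lysosome list. AzaC/TSA signals lay wholly above the untreated ones in 20 of 53 and 13 of 21 (23.6% of all genes). They lay wholly below in 8 and 1 (25.5% of all genes). Clu, the secreted chaperone clusterin, had 1056 and 1022 in AzaC/TSA, against 79.6 and 74.8 in untreated (log2 3.75 ± 0.28, SE, n = 2 each, 13.5-fold higher), and was the 1 called of 19 astrocyte genes. Apoe, the glial lipid carrier, had 8117 and 1949 in AzaC/TSA, against 2633 and 237 in untreated, and was called with the block alone (log2 2.33, adjusted p = 0.0235). Igf2, an imprinted growth factor that also marks meninges, had 652 and 355 in AzaC/TSA, against 47.0 and 113 in untreated (log2 2.72). It was the 1 called gene in each of 3 lists, of 20 imprinted genes, 21 fibroblast and meninges genes and 52 growth factor and receptor genes. Gsn, the actin-severing gelsolin, and Anxa2, a membrane-binding annexin, rose by at least 4.48 and 4.17 on the log2 scale and were the 2 called of 52 annexin, S100 and actin genes. In untreated 2 they had 1.5 and 10.4, under the floor. The block called 11 of 52 in that list higher, 7 of 53 matrix genes higher and 2 lower, and 4 of 21 integrins and tetraspanins higher and 1 lower. Fbln2, fibulin 2 of the matrix, had 7655 and 2301 in AzaC/TSA, against 1092 and 1038 in untreated, and was called with the block alone (log2 1.98).

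Further genes outside the lists were among the largest rises. Pkp2, a desmosome plaque protein, had 303 and 279 in AzaC/TSA, against 40.1 and 20.6 in untreated (log2 3.34). Csrp2, a LIM-domain protein of the cytoskeleton, had 458 and 1139 in AzaC/TSA, against 68.2 and 126 in untreated (log2 2.96). The ribonuclease Rnase4 was at least 20.6-fold higher, the exchange factor Ngef (ephexin) at least 9.01-fold and the brain sulfotransferase Sult4a1 at least 6.24-fold.

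Nes and Sox2, markers of neural stem and progenitor cells, had signals well above the floor in both groups. All 30 markers of these cells on the array reached the floor on at least 1 of the 8 arrays. So did all 24 astrocyte markers, and the count does not set stem cells apart. Nes, nestin, had 2008 and 2921 in AzaC/TSA, against 2376 and 2053 in untreated, and Sox2 had 4831 and 2819 in AzaC/TSA, against 3407 and 3751 in untreated. None of 25 markers tested was called, and the block called Prom1 (2.54) higher and Fabp7 (-1.30) and Bmi1 (-0.93) lower. The summed signal of the 30 markers was 22194 and 14644 in AzaC/TSA, against 24490.0 and 23605 in untreated, without overlap. Gfap, of astrocytes, did not pass, with untreated 2 under the floor.

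Markers of other cell types gave few calls. Of 27 blood genes 1 was called, under the name of the platelet glycoprotein gene Gp1bb, with 167 and 96.5 in AzaC/TSA, against 11.5 and 11.8 in untreated. In RefSeq this gene overlaps Septin5, a septin gene of the nervous system, and which of the transcripts the probes detect was not tested. Cd34 and Kit were dim and not called. The summed signals of the 65 blood genes on the array were 3430 and 3742 in AzaC/TSA, against 3314 and 2492 in untreated, without overlap. These sums include Gp1bb, whose rise in experiment 1 was larger than the gap between the sums of that experiment. The lack of overlap thus rests on that probe set. Of the 65, 7 stayed under the floor on all 8 arrays. The part of blood markers in the results was not tested. Of the 24 endothelial, 14 oligodendrocyte and 34 fibroblast genes on the array, 5, 2 and 2 stayed under it. None of 6 endothelial, 8 oligodendrocyte, 9 germ line, 11 Hox, 20 interferon and 19 MHC class I genes was called. The muscle list held 1 call of 24, Pygm, named above. H2-K1, an MHC class I heavy chain gene, had 846 and 677 in AzaC/TSA, against 180.4 and 441 in untreated, and was called with the block alone (adjusted p = 0.0296). None of 57 genes of Notch, Hedgehog, Wnt and BMP signalling was called by either fit. None of 57 solute carriers and pumps was called, and the block called 4 higher and 2 lower (4.71% and 5.61% of all genes).

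**Figure D4:**
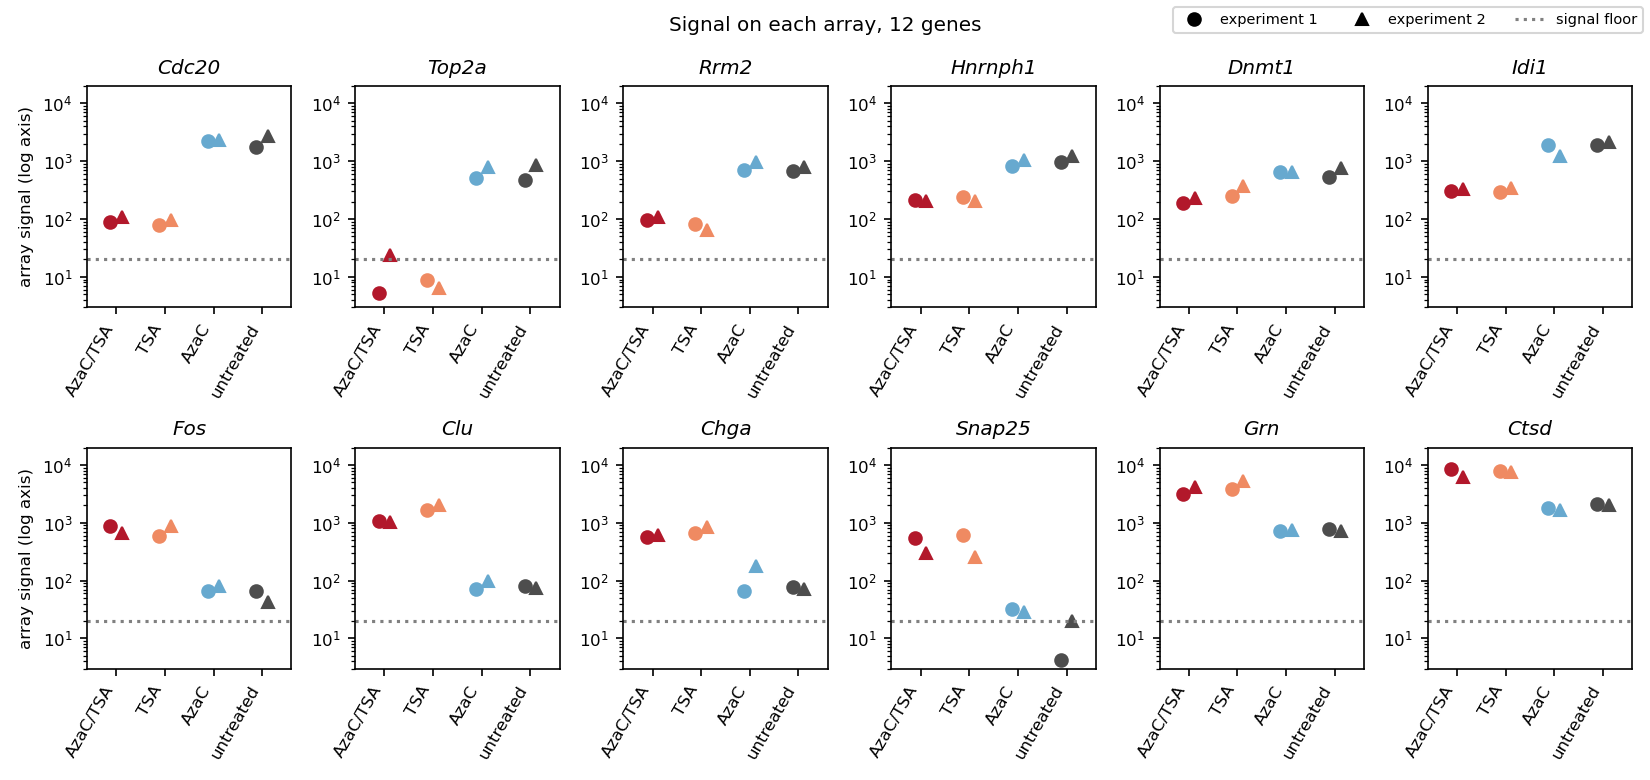
Signal on each array (log axis) for 12 genes, in AzaC/TSA, TSA, AzaC and untreated cultures, with circles for experiment 1, triangles for experiment 2 and a dotted line at the signal floor of 20. For each gene the AzaC/TSA points lie apart from the untreated points.

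Set against TSA alone, AzaC/TSA differed in no probe set by limma's adjusted p (0.0% of 7987 called, also with the block), while 185 had an unadjusted p under 0.05. The smallest adjusted p was 0.376. Over the 249 probe sets called against untreated, the median size of the difference between AzaC/TSA and TSA was 0.22 on the log2 scale, with a median 95% half-width of 0.87. In 110 of the 249 the whole interval lay within a 2-fold difference, and in 14 the difference itself was over 2-fold. A p that misses the threshold does not show that AzaC/TSA and TSA act alike. Cdc20 had 87.8 and 109 in AzaC/TSA, against 79.0 and 96.0 in TSA, a difference of 0.17 ± 0.67 (95% half-width). Grn had 3146 and 4168 in AzaC/TSA, against 3847 and 5166 in TSA (-0.30 ± 0.56). Clu had 1056 and 1022 in AzaC/TSA, against 1638 and 2049 in TSA (-0.82 ± 0.63), and Mcm5 had 72.7 and 137, against 46.1 and 38.6 in TSA (1.24 ± 0.89), and neither passed.

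The 5 named genes with the smallest p in that contrast did not pass either. Cd4 had 18.9 and 14.5 in AzaC/TSA, against 96.9 and 143 in TSA, and Reg2 had 29.3 and 19.3, against 123 and 173 in TSA. Myt1 had 114 and 133 in AzaC/TSA, against 46.0 and 12.6 in TSA, and Repin1 and Fgd1 were also higher on both AzaC/TSA arrays. None of these 5 genes was called against untreated.

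Set against AzaC alone, 223 probe sets were called (2.79%), 89 higher in AzaC/TSA (1.11%) and 134 lower (1.68%). With arrays centred on their medians the split was 116 higher and 104 lower, and without AzaC 2 the count was 48. This contrast shares the AzaC/TSA arrays with the comparison above, so its values are given side by side only. Cdc20 had 2235 and 2300.0 in AzaC cultures and 1728 and 2726 in untreated ones. Grn had 707 and 742 in AzaC cultures, against 767 and 712 in untreated ones. Dnmt1 had 664 and 649 in AzaC cultures, against 536 and 749.9 in untreated ones, and Fos had 65.6 and 81.6, against 64.9 and 42.2. For these 4 genes the AzaC/TSA arrays lay with the TSA arrays and away from both AzaC and untreated. The effect of TSA was tested for a difference with AzaC present and absent (interaction), and no probe set was called by limma, with 142 at an unadjusted p under 0.05. With no filter on dim probe sets, 11 were called in the contrast with TSA and 11 in the interaction.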

How the data were processed

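RNA from 8 mouse neurosphere cultures was measured on short-oligonucleotide arrays with Affymetrix-type probe set names. The deposited values are intensities on a linear scale, with 1 value for each probe set on an array. Their 2%-trimmed mean was 200.1 on every array, which shows a scaling by the authors. The upstream software and genome build are not given in the labels.

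From the 12488 probe sets, 66 controls were left out. Signals under 10% of the trimmed mean (20) were raised to that floor and log2 was taken. Probe sets with at least 2 of 8 arrays at 25% of it (50) were tested, 7987 in all (64.3%). GEO's platform annotation, updated by gene identifier to RefSeq symbols, gave 1 symbol to 10833 probe sets, several to 396 and none to 1193. The probe set with the highest mean over 8 arrays stands for a gene. Probe set names with _f, _r, _s, _g or _i mark probes that may cross-react or were chosen by relaxed rules.

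The fit used limma 3.58.1 under R 4.3.3 on log2 signals (lmFit, eBayes with an intensity trend), 1 mean per group over all 8 arrays (4 residual degrees of freedom, prior 4.93). The titles number 2 experiments, so arrays of the same number are paired, and their deviations from the group means correlated with r from 0.203 to 0.411. This block was tried as an alternative (3 residual degrees of freedom, prior 6.71). Behind a p-value stand 2 arrays in a group. The fit was tested on simulated data.

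The 50 gene lists (2341 genes, of which 1847 are on the array and 1364 were tested), the motifs and the rule for named genes were chosen with earlier results of these data known, and lists are described by counts and medians without a test. Named were the 15 largest measured rises and 15 largest measured falls among called genes with the same sign in experiments 1 and 2, up to 8 bounds each way, up to 6 called and 3 uncalled members of each list, and a fixed set of drug target, arrest and marker genes. For the contrasts with TSA and AzaC the rule took up to 5 genes each way, or the 5 of smallest p. The fixed genes Dnmt3b and H1f0 were not analysed here.

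Promoter windows of 300 bases came from RefSeq (GRCm38.p6), matched by gene identifier. Where a gene had several windows, the first listed was used. Motifs were searched on both strands, and other motifs searched gave shares in genes called higher, called lower and all tested of 36.4%, 34.3% and 36.6% for the metal response element (TGCACNC or TGCGCNC), 33.3%, 34.3% and 33.0% for TGACG, 15.2%, 16.7% and 13.5% for the RE1 parts CAGCACC and GGACAGC, and 81.8%, 72.2% and 66.3% for the GC box GGGCGG. Over all 32851 windows these were 25.7%, 20.8%, 13.1% and 35.7%. The sterol element, searched as 1 exact pattern, was in 0 windows of called genes. It was also in only 2 of the 4866 windows of all tested genes (0.04%) and in 30 of the 32851 mouse windows (0.09%). A match this rare cannot show whether called genes lack the element.

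The scaling was replaced by quantile normalization, by median centring or by none. The floor was set at 2.5%, at 20% or as an offset, and the filter was dropped or set at 50%. Further alternatives dropped the intensity trend, used robust eBayes, fitted the compared groups alone, added the replicate block or left out each array.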

Additional observations from a re-analysis of the deposited data

How the results depend on the processing

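The 249 calls against untreated became 63 with no filter on dim probe sets, 152 with no intensity trend, 49 in a fit of the compared groups alone and 746 with the replicate block. Leaving out 1 array gave 14 to 223 calls, 14 of them without untreated 2. The 223 calls against AzaC became 113 with no filter, 135 with no trend, 45 in a fit of the compared groups alone and 744 with the replicate block, and 48 to 158 with 1 array left out. Centring on the median left 220, with the share of higher calls at 52.7% in place of 39.9%. Against TSA, 11 probe sets were called with no filter and 0 under every other alternative run, each array left out included. The interaction gave 11 with no filter and 1 with no trend. The other alternatives moved none of these counts by over 1.5 times. No gene named by the rule turned its direction. Of the 107 called ones, 97 lost the call without untreated 2, 84 with no filter, 71 with only the groups compared, 68 and 54 without AzaC/TSA 1 and 2, 55 without untreated 1 and 38 with no trend. The replicate block kept all 107. A group with an array left out came from 1 experiment and was assumed to vary like the others, and the cause of the lost calls was not tested. Probe sets near the floor give bounds only, and 23.9% to 30.0% of probe sets per array were under it.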
